A study of Mus musculus with 4 samples.

Results

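The heat shock chaperones described here are 10 mouse genes, taken by their symbols from the 55536 mouse genes of the deposited gene tables: Hspa1a, Hspa1b, Hspa8, Hspa5, Dnajb1, Dnaja1, Hsph1, Hsp90aa1, Hsp90ab1 and Hsf1. Each symbol matched 1 gene identifier. Total RNA was measured in T cells taken from the spleen, labelled CD3, of male adult mice at 66 days of age. All mice were of the hybrid strain B6CASTF1/J, with C57BL/6 as the mother and CAST/EiJ as the father, and no treatment is named. The 4 libraries form 1 group, carry biological replicate numbers 1 to 4 with a biosample each, and share 1 donor identifier. Nothing in the labels says that they came from separate animals, so p-values measure the spread between these samples, which may be technical. Each library started from 300 ng of RNA with added spike-in RNAs of known amount.

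Chaperones bind unfolded or newly made proteins and keep them from clumping. HSP70 proteins hold short stretches of a client in a cycle driven by ATP, J-domain proteins bring clients and start ATP hydrolysis, nucleotide exchange factors release ADP and with it the client, and HSP90 proteins finish the folding of kinases and receptors. HSF1 is the transcription factor that binds heat shock elements, which are repeats of the unit GAA in alternating orientation, and turns on inducible chaperone genes when unfolded proteins accumulate. In T cells HSP90 and its cofactors are known for keeping signalling kinases such as Lck folded, and the inducible chaperone genes are known for their response to heat and other stresses that unfold proteins.

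The promoter sequences are shown first because they carry the response elements that these genes are known for. RefSeq promoter windows on GRCm38.p6, from 250 bases before to 50 bases after a start site, matched 6 of the 10 genes with 10 windows; the other 4 genes have none in that table. Hspa1a and Hspa1b are neighbours on chromosome 17, 9951 bases apart, and are transcribed from the minus strand. Their upstream 250 bases are given in full because the RNA of this pair differed most between libraries. The capitals mark a pair of heat shock units, GAANNTTC, at positions -104 to -97 from the start site in both genes. The Hspa1a stretch lies at chr17:34972157-34972406 and the Hspa1b stretch at chr17:34959239-34959488.
Hspa1a: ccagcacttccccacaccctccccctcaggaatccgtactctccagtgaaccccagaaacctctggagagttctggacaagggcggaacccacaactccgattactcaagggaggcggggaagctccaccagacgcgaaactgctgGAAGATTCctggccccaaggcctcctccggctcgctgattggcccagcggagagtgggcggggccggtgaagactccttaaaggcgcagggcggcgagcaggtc
Hspa1b: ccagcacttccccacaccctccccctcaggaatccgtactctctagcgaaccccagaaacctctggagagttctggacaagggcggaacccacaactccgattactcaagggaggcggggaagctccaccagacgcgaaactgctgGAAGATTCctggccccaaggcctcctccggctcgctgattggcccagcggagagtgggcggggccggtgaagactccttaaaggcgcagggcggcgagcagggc
The 2 stretches differ at 3 of 250 bases. With positions counted from 1 at the 5′ end and the Hspa1a base first, these are C44T, T47C and T249G. Both hold ATTGG, the reverse of the CCAAT box, at -67 to -63.

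The other members with a match are shown as 30-base stretches, with the match in capitals. Hsph1, on the minus strand of chromosome 5, has 2 RefSeq start sites. Counted from the first, a facing pair, TTCNNGAA, lies at -33 to -26 (chr5:149636351-149636380) and 3 alternating units at 36 to 48 after the start (chr5:149636287-149636316). Counted from the second, the same matches lie at -54 to -47 and at 15 to 27. Dnaja1, on the plus strand of chromosome 4, has an inverted pair in the first of its 3 windows (chr4:40722333-40722362). Hspa5, on the plus strand of chromosome 2, has no pair of heat shock units in its window, and it holds an ER stress element, CCAAT followed by 9 unspecified bases and CCACG (chr2:34772020-34772049).
Hsph1 facing pair: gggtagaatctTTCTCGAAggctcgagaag
Hsph1 3 units: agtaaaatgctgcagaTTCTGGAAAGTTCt
Dnaja1 inverted pair: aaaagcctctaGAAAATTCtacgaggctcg
Hspa5 ER stress element: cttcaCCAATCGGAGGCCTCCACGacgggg
These matches are descriptions of letters, not of bound sites. Among 32817 promoter windows of the same length searched on both strands, 15.1% hold GAANNTTC or TTCNNGAA, 0.603% hold 3 alternating units (GAANNTTCNNGAA or its reverse complement, which contains both pairs), and 0.119% hold the ER stress element, which itself contains a CCAAT box. A CCAAT box is in 37.4% of windows. At least 1 pair of units is in a window of 4 of the 6 members that have one, and neither window of Dnajb1 holds one. The Hsph1 and Dnaja1 matches and the Hspa5 element lie within exons of the annotation used for counting, whose start sites are farther upstream than those of RefSeq.

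Depth was similar in the 4 libraries. The mouse genes received 15765009, 17280908, 16382457 and 14540725 estimated counts in libraries 1 to 4, and 3 counts correspond to 0.174 to 0.206 CPM, the count of a gene scaled to the library size. Mitochondrial genes took 6.92% to 7.49% of counts. All 12 T cell markers were present, led by Trbc2, Trac and Trbc1, and their summed TPM was 3243, 3366, 3321 and 3310. Summed TPM of 9 B cell markers was 15.3, 19.6, 13.9 and 146, and of 8 erythroid markers 35.4, 62.6, 15.8 and 633.9, so library 4 was highest for both. Of those tested, 7 of 7 B cell markers (Igkc, Ighd, Cd22, Cd79b, Cd79a, Pax5 and Blk), 3 of 3 erythroid markers (Hba-a1, Hbb-bs and Hba-a2) and 3 of 4 neutrophil markers (S100a9, S100a8 and Ngp) varied beyond the trend in edgeR's goodness-of-fit test. Over all 13118 tested genes that share was 1.4%. The 9 neutrophil markers summed to 34.9 TPM in library 2 and to 10.8 to 12.2 in the others. The 9 monocyte and macrophage markers, led by Lyz2, Cd68 and Csf1r, summed to 27.6 to 34.1 TPM, and the 7 natural killer markers, led by Eomes, Tyrobp and Fcer1g, to 21.7 to 29.4 TPM. In these last 2 lists 0 genes were called by edgeR, and 1 and 0 had an unadjusted p below 0.05. Slc4a1, a red cell membrane marker, was at 0 in libraries 1 and 3. In a bulk sample, fewer cells of a type and less RNA per cell cannot be told apart.

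Levels are given in TPM, a share of all transcripts that corrects for gene length and can be compared between genes. The constitutive cytosolic chaperones led the list and the inducible HSP70 pair was at its end. Hspa8, Hsp90ab1 and Hspa5 made up 34.4% ± 1.23, 24.1% ± 0.391 and 15.7% ± 1.35 (SD, n = 4) of the summed TPM of the 10 genes. That sum was 1254 in library 1, 1494 in library 2, 1628 in library 3 and 1410 in library 4, lowest in library 1 and highest in library 3. In every library the order from the highest was Hspa8, Hsp90ab1, Hspa5, Dnaja1, Hsp90aa1, Hsf1, Hsph1, Dnajb1, Hspa1b and Hspa1a. Of the 9 neighbouring pairs in that order, 7 had ranges that did not overlap over the 4 libraries. The ranges of Dnaja1 and Hsp90aa1 overlapped, as did those of Hspa1b and Hspa1a, though the first of each pair was higher within each of the 4 libraries.

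**Figure D1:**
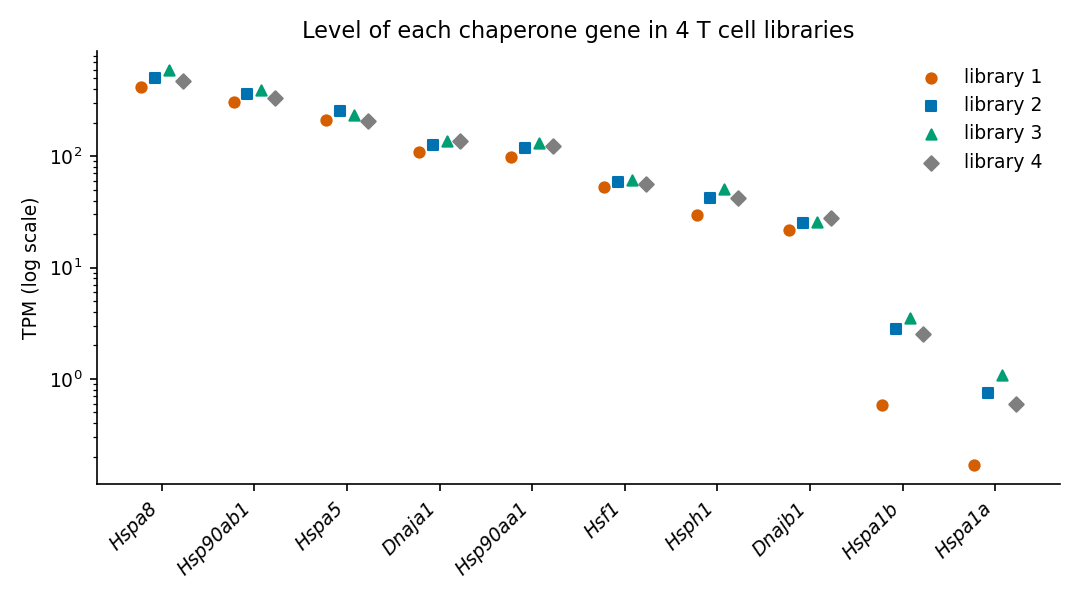
TPM of the 10 genes (vertical axis, log scale) in each of 4 libraries, 1 point per library, genes ordered by mean TPM. Hspa8 lies between 419.7 and 589.5, Hspa1a between 0.17 and 1.09, and the library 1 point of Hspa1b (0.58) and of Hspa1a (0.17) lies well below the other 3.

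Hsf1, the regulator of the family (chr15:76477422-76501913, plus strand, mm10), was measured at 53.1, 58.7, 60.8 and 56.8 TPM in libraries 1 to 4. Its mean of 57.4 ± 3.26 (SD, n = 4) ranked 971 among 22015 nuclear protein-coding genes, and its coefficient of variation, 5.68%, was the lowest of the 10 genes. The libraries lay close together, with library 1 lowest and library 3 highest. Of its relatives, Hsf2 averaged 5.08 ± 0.613 TPM and Hsf4 0.445 ± 0.118, while Hsbp1, which encodes a protein that binds HSF1, averaged 26.2 ± 2.00. Neither Hsf2 nor Hsbp1 varied beyond the trend of all genes in edgeR's goodness-of-fit test, and Hsf4 had too few counts for it.

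Hspa8 encodes HSC70, the constitutive cytosolic HSP70 (chr9:40800984-40810087, plus strand). It was measured at 419.7, 508, 589.5 and 479 TPM, a mean of 499 ± 70.6 (SD, n = 4) and rank 85 among coding genes. Library 1 was lowest and library 3 highest, 1.40-fold apart.

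Hspa1b and Hspa1a encode the near-identical stress-inducible HSP70 proteins (chr17:34956436-34959238 and chr17:34969190-34972156). Hspa1b was measured at 0.58, 2.80, 3.51 and 2.53 TPM, from 25.8, 134, 158 and 99.99 estimated counts. Hspa1a was measured at 0.17, 0.75, 1.09 and 0.60 TPM, from 8.17, 38.0, 52.0 and 25.01 counts. In both genes library 1 stood below the other 3 and library 3 was highest. Libraries 2 to 4 ranged from 2.53 to 3.51 TPM for Hspa1b and from 0.60 to 1.09 TPM for Hspa1a. The highest library exceeded the lowest 6.05-fold for Hspa1b and 6.41-fold for Hspa1a, against 1.14-fold to 1.70-fold for the other 8 genes. The deposited credibility intervals of the quantifier cover read assignment and counting but not the spread between samples. For Hspa1b they ran from 0.335 to 0.813 TPM in library 1 and from 1.87 upward in the other 3. For Hspa1a those of libraries 1 and 4 overlapped, at 0.0571 to 0.359 TPM and 0.306 to 0.961 TPM.
These 2 genes share sequence, so their split is uncertain: 62.3% of the 50-base stretches of the Hspa1b transcript also occur in Hspa1a. Their summed counts, which do not depend on that split, were 34, 172, 210 and 125, again lowest in library 1. Gm20481, annotated on the opposite strand over Hspa1a, was listed at 0 TPM in all 4 libraries.

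Hspa5 encodes BiP, the HSP70 of the endoplasmic reticulum (ER) (chr2:34771970-34777547). It was measured at 212, 253, 234 and 208 TPM, a mean of 227 ± 20.8 (SD, n = 4). Unlike the other 9 genes it was lowest in library 4 and highest in library 2, with library 1 only slightly above library 4. By TPM, library 1 was lowest for 9 of the 10 genes, against 36.7% of 12776 genes with a mean of at least 1 TPM. Library 3 was highest for 8 of the 10 by TPM, against 24.6% of those genes.

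The J-domain co-chaperones were Dnaja1 (chr4:40722150-40737149) and Dnajb1 (chr8:83608193-83612653), which encode the class A and class B partners of cytosolic HSP70. Dnaja1 was measured at 110.1, 125, 138 and 136 TPM (mean 127 ± 12.8 SD, n = 4), and Dnajb1 at 21.97, 25.4, 25.4 and 27.7 TPM (mean 25.1 ± 2.37). Library 1 was lowest for both, and Dnajb1 alone of the 10 genes was highest in library 4. Smu1, whose gene overlaps the end of Dnaja1 on the opposite strand, was at 26.4 ± 1.95 TPM.

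Hsph1 encodes HSP110, a nucleotide exchange factor of HSP70 (chr5:149614287-149636376, minus strand). It was measured at 29.7, 42.0, 50.5 and 41.8 TPM, a mean of 41.0 ± 8.55 (SD, n = 4). Library 1 was lowest, library 3 highest, and libraries 2 and 4 nearly equal. Its coefficient of variation, 20.8%, was the third highest of the 10 genes, after 58.5% for Hspa1a and 53.2% for Hspa1b.

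The HSP90 pair consists of Hsp90ab1, the constitutive cytosolic form (chr17:45567775-45573271), and Hsp90aa1, the more inducible one (chr12:110690605-110702728). Hsp90ab1 was measured at 309, 359, 393 and 334 TPM (mean 349 ± 35.7 SD, n = 4) and Hsp90aa1 at 98.2, 119, 132 and 124 TPM (mean 118 ± 14.4). In both, library 1 was lowest and library 3 highest.

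Ratios of partner genes were formed within each library, where scaling between libraries cancels. The log2 ratio of Hsp90ab1 to Hsp90aa1 was 1.65, 1.60, 1.57 and 1.43 (mean 1.56 ± 0.09 SD, n = 4), and that of Dnaja1 to Dnajb1 was 2.33, 2.30, 2.44 and 2.29 (2.34 ± 0.07). Both changed little between libraries. The log2 ratio of Hspa8 to Hsph1 was 3.82, 3.60, 3.54 and 3.52 (3.62 ± 0.14), that of Hspa8 to Hspa5 was 0.99, 1.01, 1.33 and 1.20 (1.13 ± 0.16), and that of Hspa1b to Hspa1a was 1.77, 1.90, 1.69 and 2.08 (1.86 ± 0.17). The log2 ratio of Hspa8 to Hspa1b stood apart, with 9.50 in library 1 against 7.50, 7.39 and 7.56 in the others (7.99 ± 1.01). The first gene of each ratio was higher in 4 of 4 libraries. An exact permutation test that flips signs, two-sided, gave p = 0.13 for each of the 6 ratios and 0.13 after Benjamini-Hochberg adjustment over them, which is the smallest value that 4 libraries allow, so this design cannot reach 0.05.

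Variation between libraries was tested on counts with edgeR's goodness-of-fit test, which asks whether a gene's counts vary more than the trend of all genes at that level. Of the 10 genes, 9 had enough counts to be tested and 2 varied beyond the trend with an adjusted p below 0.05, where 183 of 13118 tested genes, 1.4%, did. Hspa1b had an adjusted p of 0.000239 and rank 80 of all tested genes by its statistic, and Hsph1 an adjusted p of 0.00111 and rank 92. The unadjusted p was 0.0510 for Hspa5, 0.0799 for Hspa8, 0.245 for Dnaja1, 0.253 for Hsp90ab1, 0.481 for Dnajb1, 0.496 for Hsp90aa1 and 0.752 for Hsf1, and none of these 7 passed adjustment (edgeR). Hspa1a did not pass the filter on low counts, and without the filter its adjusted p was 0.304 in edgeR. Both calls were lost when library 1 was left out, where each adjusted p was 1.00 in edgeR. Over all alternatives the adjusted p ran from 6.32e-11 to 1.00 for Hspa1b and from 1.09e-05 to 1.00 for Hsph1 (edgeR). The Hsph1 call was also lost without library 3, with an adjusted p of 0.113, when libraries were scaled by spike-ins, with 0.216, and with a common dispersion, with 0.15 (edgeR).

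On the log2 CPM scale, the level in library 1 minus the mean of the other 3 was -2.17 for Hspa1b, the sharpest difference of the 9 tested genes, and -0.54 for Hsph1. Only 2 of the 13118 tested genes had a lower value than Hspa1b. The other values were -0.23 for Hspa8, -0.19 for Dnaja1, -0.18 for Dnajb1, -0.13 for Hsp90ab1, -0.10 for Hsp90aa1, -0.05 for Hsf1 and -0.02 for Hspa5. All 9 were below 0, as were 49.5% of all tested genes, and their median was -0.18 against 0.00 for all tested genes. Library 1 was the lowest library for 6 of the 9 genes, against 23.1% of all tested genes, and library 3 the highest for 7 of the 9, against 22.8%. Hspa5, Hsp90ab1 and Hsf1 were lowest in library 4 on this scale. These 9 genes are not replicates of each other, and no test over them was made.
Scaling by spike-ins instead moved the median of all tested genes by -0.08 in library 1, 0.02 in library 2, -0.09 in library 3 and 0.15 in library 4. Library 1 was then lowest for all 9 members, against 37.7% of all tested genes, and library 3 was highest for 3 of them, against 5.39% of all tested genes. In library 3, 5 of the 9 were then below their own mean, against 77.9% of all tested genes, and the median deviation of the 9 was 0.00 against -0.09 for all. The sign of the deviation in library 3 thus differed between the scalings for 5 of the 9 genes. Library 1 was below the mean for all 9 under both. Of all tested genes, 49.5% were below their mean in library 1 without spike-in scaling and 75.3% with it.

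**Figure D2:**
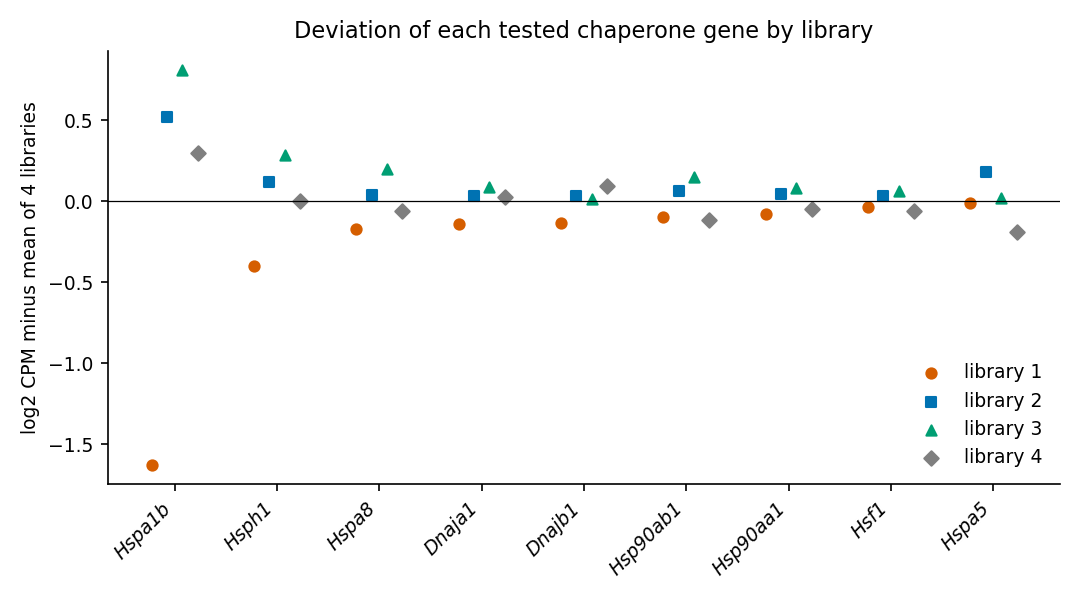
Log2 CPM of each of the 9 tested genes in each library minus the gene's mean over the 4 libraries (vertical axis), genes ordered by their difference in library 1. Library 1 points lie below the zero line for every gene, from -1.62 for Hspa1b to -0.01 for Hspa5, and library 3 points lie above it.

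Of 112 other chaperone, cofactor, HSF family, ER folding and unfolded protein response genes, 99 were tested. Of these, 1 varied beyond the trend (edgeR, 1.01% against 1.4% of all genes). The median difference of library 1 from the others was -0.01, with 55 of 99 below 0. In library 1, 17 of 22 genes of ER folding and the unfolded protein response were below their mean. So were 7 of 8 other HSP70 genes and 2 of 2 other HSP90 genes. Also below it were 6 of 10 chaperonin genes, 13 of 32 J-domain genes and 13 of 27 cofactors, against 49.5% of all tested genes. Some genes, such as Hsp90b1, Hyou1 and Hspa13, stand in 2 lists and are counted in both. Other HSP70 genes were lowest in library 1 in 5 of 8 cases, against 23.1% of all tested genes, with a median deviation there of -0.08. The difference between these lists and the 10 chaperone genes was not tested. The gene called was Atf4, a transcription factor of the unfolded protein response and the integrated stress response. It was measured at 69.6, 92.4, 104.7 and 102 TPM, lowest in library 1, with an adjusted p of 0.00998 (edgeR).
Among other HSP70 genes, 0 of 8 tested varied beyond the trend in edgeR, and 0 had an unadjusted p below 0.05. The highest were the mitochondrial Hspa9 at 63.6 ± 4.26 TPM (SD, n = 4), Hspa14 at 39.5 ± 2.97 and Hspa4 at 28.1 ± 1.49. Other HSP90 genes were the ER form Hsp90b1 at 85.3 ± 6.89 and the mitochondrial Trap1 at 25.7 ± 1.5, and neither was called.
Of 32 other J-domain genes, 0 were called, and Dnajc7 (142 ± 14.1 TPM), Dnajb6 (114.5 ± 3.94) and Dnajb9 (52.3 ± 3.25) led. The 27 cofactors were led by Bag6 (136 ± 10.5), Cdc37 (46.7 ± 2.29), which guides kinases to HSP90, and the HSP90 co-chaperone Ptges3 (40.2 ± 3.68), and 0 were called. Subunits of the cytosolic chaperonin led the 10 chaperonin genes, with Cct5 at 87.3 ± 4.96, Cct4 at 82.7 ± 5.29 and Cct2 at 82.7 ± 3.49, and 0 were called. In these 3 lists, too, 0 genes had an unadjusted p below 0.05 (edgeR). Among the 22 tested genes of ER folding and the unfolded protein response, Calr, a lectin chaperone, was highest at 154 ± 6.61 TPM. Atf4 and Hsp90b1 followed.

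**Figure D3:**
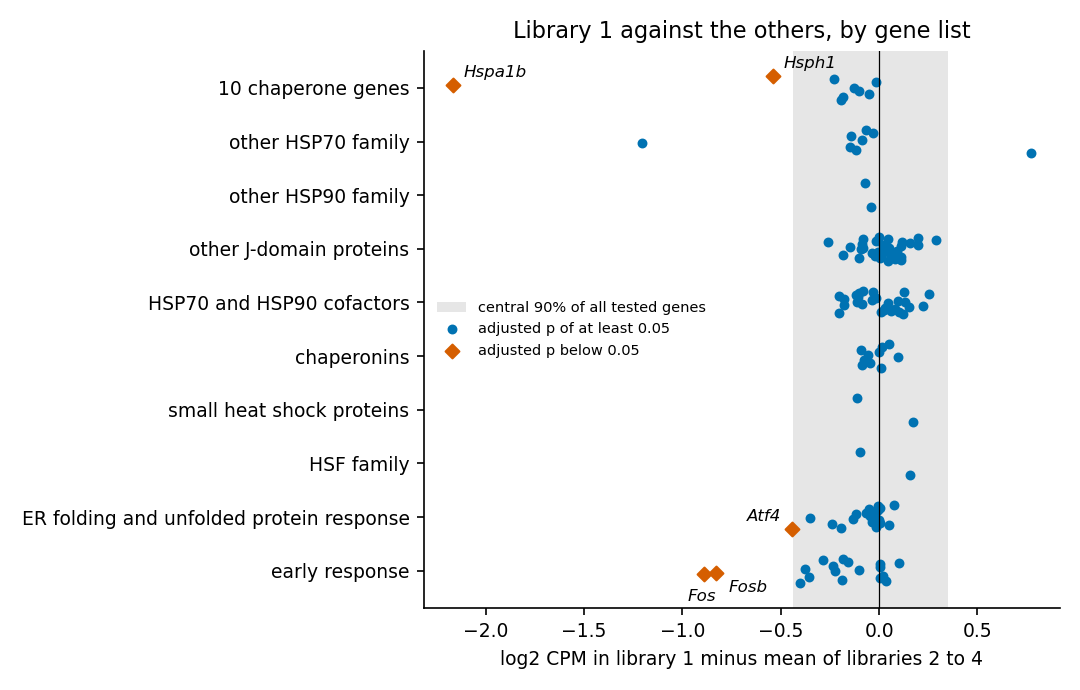
Log2 CPM in library 1 minus the mean of libraries 2 to 4 (horizontal axis) for each tested gene of 10 lists, 1 point per gene, with genes called by the goodness-of-fit test as diamonds and the central 90% of all tested genes, from -0.44 to 0.35, shaded. Hspa1b at -2.17 and Hsph1 at -0.54 lie outside the band, as do Hspa2 (-1.21) and Hspa12a (0.77) of the HSP70 family, Atf4 (-0.44), Fos (-0.89) and Fosb (-0.83), and the cofactors, J-domain genes and chaperonins lie inside it.

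Other values moved with library 1. Of 18 tested early response genes, which are switched on within minutes of a stimulus, 2 varied beyond the trend in edgeR: Fos at 57.6, 83.1, 117 and 141 TPM (adjusted p = 3.81e-24) and Fosb at 24.5, 34.4, 42.9 and 65.0 TPM (adjusted p = 2.90e-23). Library 1 was lowest for both, but library 4, not library 3, was highest. The most abundant genes of that list were Junb at 382 ± 49.7 TPM, Jund at 271 ± 11.6 and Klf6 at 212 ± 12.2. An unadjusted p below 0.05 was found for 6 of the 18 genes (edgeR), against 642 of 13118 tested genes. On log2 CPM, 10 of the 18 genes were lowest in library 1, against 23.1% of all tested genes. Their median deviation there was -0.14, as was that of the 9 chaperone genes, against 0.00 for all tested genes. Library 4 was highest for 7 of the 18, against 1 of the 9 chaperone genes and 28.5% of all tested genes. The summed TPM of T cell markers was lowest in library 1, at 3243 against 3310 to 3366. By log2 CPM, however, only 3 of the 12 T cell markers were below their mean in library 1, against 49.5% of all tested genes. Their median deviation there was 0.02, and 9 of the 12 were lowest in library 4, against 28.2% of all tested genes. The neutrophil TPM sum was also lowest in library 1, at 10.8 against 11.1 to 34.9. The B cell, erythroid, monocyte and macrophage, and natural killer sums of library 1 lay within the range of the other libraries. The part of early response genes and that of cell composition in the chaperone differences were not tested.

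The genes nearest to Hspa1b in pattern were sought among 6390 tested genes with a mean of at least 10 TPM. The measure was the Euclidean distance of centred log2 CPM over 4 libraries. Hspa1b itself averaged 2.355 TPM, so genes at its own level were left out. The nearest was Gm42742, annotated as protein-coding, at a distance of 0.65, with 1.57, 13.8, 12.3 and 13.3 TPM. Next were 2 short RNAs, Gm27533 at 1.08 (29.3, 54.3, 69.4 and 65.8 TPM) and Gm27505 at 1.24 (111, 174, 236 and 259 TPM). All 3 were lowest in library 1, as Hspa1b was, which the choice by distance favoured. Gm42742 varied beyond the trend in edgeR's goodness-of-fit test (adjusted p = 9.98e-11), whereas the 2 short RNAs did not. Hsph1 came at rank 12, with a distance of 1.42.

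The second deposited quantification of the same reads gave the same order for the first 3 genes and higher values for most. Summed over transcripts, Hspa8 averaged 756 TPM, Hsp90ab1 567, Hspa5 259, Hsp90aa1 170, Dnaja1 141, Hsf1 69.1, Hsph1 54.3 and Dnajb1 28.0, each above its first value in 4 of 4 libraries. Hsp90aa1 thus lay above Dnaja1, the reverse of the first quantification. The mean log2 ratio of second to first was largest for Hsp90ab1, 0.70 ± 0.05 (SD, n = 4), and Hspa8, 0.60 ± 0.06. Hspa1b gave 0.598, 3.12, 3.67 and 2.83 TPM and Hspa1a 0.155, 0.441, 0.984 and 0.591, so that library 1 was lowest in both quantifications.
Several members share 50-base stretches with other genes, among them the processed pseudogenes Gm12346 and Gm15459. The share was 47.5% for Hsp90aa1 (chiefly with Gm12346), 38.6% for Hspa8 (chiefly with Gm15459), 11.9% for Dnaja1, 3.44% for Hsp90ab1 and 0.380% for Dnajb1, and none was found for Hspa5, Hsph1 and Hsf1. The assignment of reads to Hspa8 and Hsp90aa1 is uncertain to that extent.

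**Figure D4:**
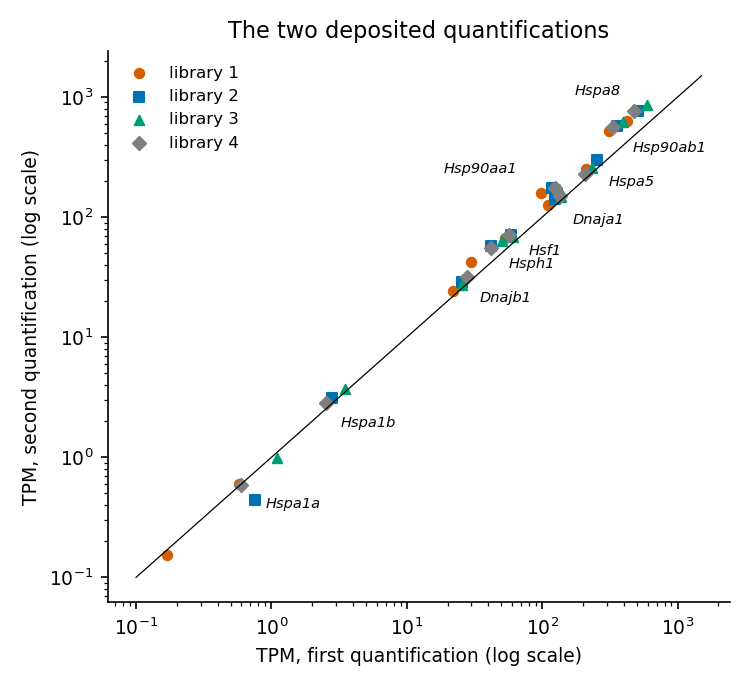
TPM in the second quantification (vertical axis, log scale) against the first (horizontal axis, log scale), 1 point per gene and library, with the line of equality. Hspa8 and Hsp90ab1 lie above the line in all 4 libraries, and Hspa1a lies below it in all 4.

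Transcript shares showed how much of each gene's TPM was assigned to annotated coding transcripts. Hspa1a and Hspa1b have 1 annotated transcript each, Hspa1a-201 (2967 bases) and Hspa1b-201 (2803 bases), which therefore hold all of it. Of the 2 Dnajb1 transcripts, Dnajb1-201 held 91.1% ± 4.63 (SD, n = 4) in the first quantification and 98.6% in the second.
For Hspa8, coding transcripts held 62.6%, 61.5%, 59.6% and 62.0% in libraries 1 to 4, and retained-intron transcripts 30.3%, 30.1%, 32.0% and 18.7%. The coding share was stable while library 4 had the smallest retained-intron share. Its main coding transcript differed between quantifications: Hspa8-202 held 48.5% in the first and 3.74% in the second, whereas Hspa8-201 held 9.68% and 26.8% and the short Hspa8-205 3.27% and 27.2%. The retained-intron Hspa8-204 held 23.3% and 9.88%, and the noncoding Hspa8-203 and Hspa8-209 held 10.6% and 0.113% in the first and 14.3% and 14.8% in the second.
For Hspa5, coding transcripts held 69.5% ± 1.39, nearly all in Hspa5-202 (64.8%), and the quantifications differed little (70.7% in the second). Retained-intron transcripts held 28.8% ± 1.95, including Hspa5-205 at 10.9%, Hspa5-206 at 10% and Hspa5-203 at 7.91%. The second quantification gave 0 to Hspa5-206.
Dnaja1 had the smallest coding share. Noncoding processed transcripts held 93.1%, 93.6%, 91.4% and 91.1%, and the second quantification gave 79.5% ± 4.26. They were Dnaja1-206 (31.5% and 6.01%), Dnaja1-204 (26.8% and 31.3%) and Dnaja1-208 (26.1% and 32.7%), while the coding Dnaja1-202 was at 0 in the first and 15.9% in the second.
For Hsph1, coding transcripts held 49.1%, 44.5%, 39.5% and 37.0%, and retained-intron transcripts 44.2%, 45.04%, 51.3% and 56.6%. Library 1 had the largest coding share and library 4 the smallest, and the second quantification placed the same libraries at the ends, with 59.4% and 42.1%. Hsph1-211, coding, held 33.2% and 17.1% in the 2 quantifications, the coding Hsph1-209 0 and 10.8%, and the retained-intron Hsph1-208 and Hsph1-204 29.3% and 11.5% in the first.
For Hsp90aa1, retained-intron transcripts held 16.1%, 24.2%, 33.2% and 29.5%, lowest in library 1. The second quantification gave 19.9%, 19.0%, 24.3% and 25.5%, a narrower range whose lowest library was library 2. Its coding transcripts were Hsp90aa1-201 (35.9% and 44.0%), Hsp90aa1-202 (29.02% and 10.04%) and the short Hsp90aa1-207 (8.70% and 17.5%), beside the retained-intron Hsp90aa1-205 (14.02% and 19.4%).
Hsp90ab1 had the largest coding share among the genes with more than 2 transcripts, 89.1% ± 1.47, and 95.1% in the second quantification. Hsp90ab1-201 held 88.4% and 59.4%, and the 351-base Hsp90ab1-202 held 0.720% and 34.9%.
For Hsf1, coding transcripts held 37.1% ± 2.09, retained-intron transcripts 48.8% ± 2.93 and transcripts annotated for nonsense-mediated decay 12.5% ± 0.700. The quantifications differed little here, with 37.4%, 47.7% and 13.4% in the second. The largest shares were those of the coding Hsf1-205 (21.7%) and of the retained-intron Hsf1-208 (17.6%), Hsf1-210 (11.6%) and Hsf1-212 (10.96%). The libraries hold total RNA, which includes RNA not yet spliced, and short transcripts receive a high TPM per read. The part of either in these shares was not tested.

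**Figure D5:**
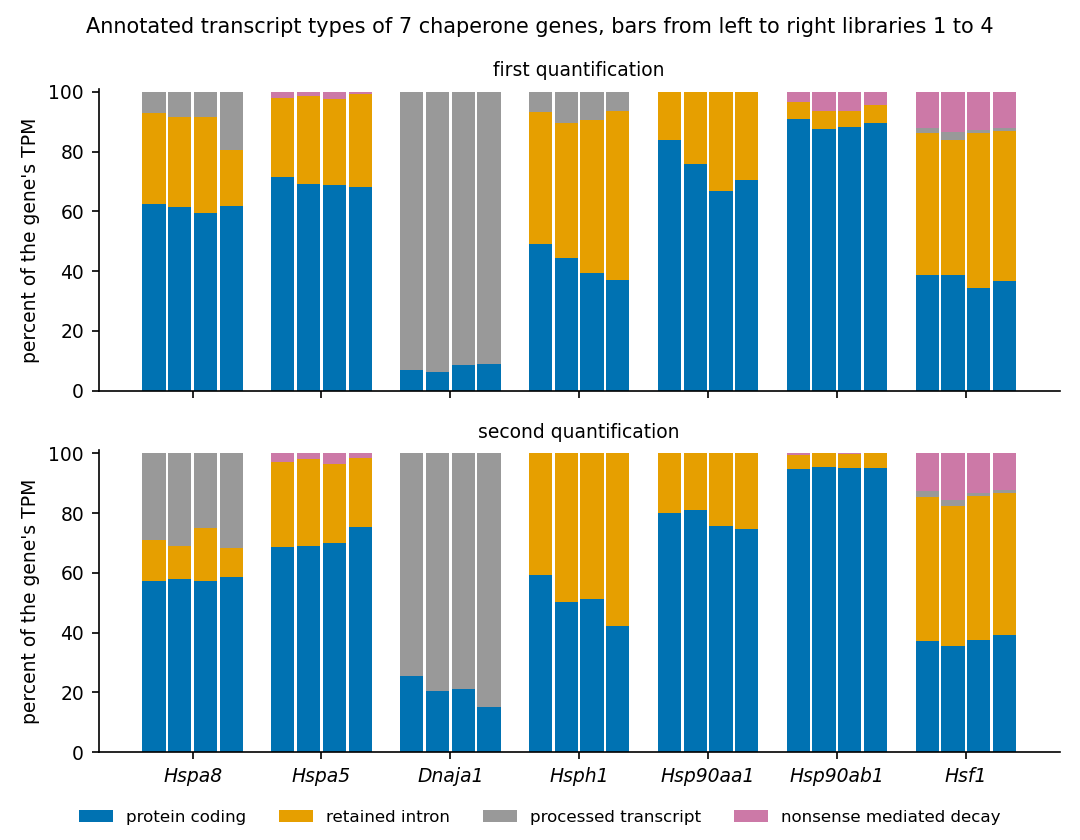
Percent of each gene's TPM (vertical axis) by annotated transcript type, as stacked bars from library 1 (left) to library 4 (right), in the first (top) and second (bottom) quantification. Coding transcripts hold most of Hsp90ab1 (89.1% on average in the first) and little of Dnaja1 (7.70%).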

How the data were processed

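The build is mm10 with GENCODE M21 genes, per the text deposited beside the tables; aligner and quantifier names: not given in the sources used here. One quantification, called the first, has genes and transcripts and comes from transcriptome alignments; the second has transcripts and comes from reads, per the same text. The deposited expected counts (first) and estimated counts (second) are not normalized. The deposited TPM values are per length and scaled to a fixed total over all targets, spike-ins included, and protein-coding genes hold 34.4% to 36.0% of TPM. The deposited FPKM values are per length and scaled to counted reads. The deposited percent values give a transcript's share of its gene. The deposited interval bounds, entered as a score, are on the TPM scale. Each library was quantified alone by the authors. The annotation is of C57BL/6, and the part of CAST/EiJ variants in the counts was not tested.

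Second-table values were summed per gene. Numeric identifiers, at most 8.78e-05% of counts, and 97 spike-ins (0.299% to 0.347%) stayed out of library sizes and tests. With 1 group there is no contrast. Expected counts were rounded and fitted with edgeR 4.0.16 in R 4.3.3 (intercept only, TMM scaling, filterByExpr with a minimum count of 10, trended dispersion), with the goodness-of-fit test per gene and Benjamini-Hochberg adjustment over 13118 genes at 0.05. The filter kept 9 of the 10 chaperone genes. The common biological coefficient of variation was 0.0938. Log2 CPM used a prior count of 2. The test was checked on simulated counts. Floors are 3 counts and cover counting error only, since PCR copies are counted without molecular identifiers. Percentages of isoforms, motif matches (RefSeq windows, GRCm38.p6) and shared 50-base stretches are descriptions.

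The members, lists and tests were chosen with earlier results of these data known. All 10 members are named; of each list, the 3 genes with the highest mean TPM and each gene past the test; the 3 genes nearest in pattern; and transcripts with at least 10% of their gene in either quantification. Ddit3 was left out because 2 identifiers carry its symbol, and 1 B cell marker is not reported here. Alternatives were DESeq2 1.42.0 size factors or dispersion trend, spike-in library sizes, no filter, common dispersion, the second quantification, FPKM, a pseudocount of 1 TPM, TPM over protein-coding genes, and each library left out.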

Additional observations from a re-analysis of the deposited data

Results flagged for a closer look

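In groups of 4, a library was singled out where its gap to the nearest other exceeded 0.83 of the whole range (Dixon's criterion). Of 61 values examined, 7 met it; chance alone does so in about 1 in 20 groups. The log2 ratio of Hspa8 to Hspa1b was 9.50 in library 1 and 7.39 to 7.56 in the others. Library 4 stood apart in 3 transcript shares of the first quantification: Hspa8-203 held 19.2% against 7.13% to 8.26%, Hspa8-204 12.3% against 25.8% to 28.0%, and Hsf1-210 8.50% against 12.6% to 12.7%. In the second quantification library 4 held 17% of Hspa8-203 against 11.8% to 15.4%, 5.40% of Hspa8-204 against 7.91% to 15.1%, and 8.38% of Hsf1-210 against 11.1% to 12.1%, so it was still the highest or lowest library but, for both Hspa8 transcripts, less far from the others. Hsp90b1, the HSP90 of the ER, was at 74.9 TPM in library 1 and 88.0 to 89.1 TPM in the others, while on scaled counts its log2 difference of library 1 from the mean of the others was -0.04. Library 2 was low for Hsf2, at 4.17 TPM against 5.28 to 5.44, and for Hsf4, at 0.27 TPM against 0.48 to 0.52. The Hsf4 values rest on only 10, 7, 12 and 11 counts in libraries 1 to 4. Hsf2 had 186, 195, 226 and 201 counts, lowest in library 1, with an unadjusted p of 0.701 in edgeR's goodness-of-fit test. In the second quantification library 2 was lowest for both, with 0.733, 0.477, 0.605 and 1.10 TPM for Hsf4. Library 4 also had the highest B cell and erythroid marker sums, and library 2 the highest neutrophil sum; their part in these values was not tested.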

How the results depend on the processing

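No paired analysis was possible because the libraries form 1 group. Genes called numbered 183; they numbered 120 with spike-in library sizes, 275 with no filter on low counts, 353 with a common dispersion, and 116 to 149 with a library left out. Members called numbered 2; they numbered 1 with spike-in sizes or a common dispersion and 0 to 2 with a library left out (0 without library 1). Of 90 alternative adjusted p-values of members (edgeR), 85 kept their side of the threshold and 5 did not, all for Hspa1b and Hsph1; Hsph1 was not called with a common dispersion, at 0.15. TPM over protein-coding genes raised each level, to 1.84 for Hspa1a, 6.62 for Hspa1b, 1410.4 for Hspa8, 641 for Hspa5, 70.9 for Dnajb1, 359.5 for Dnaja1, 116 for Hsph1, 334 for Hsp90aa1, 986 for Hsp90ab1 and 162 for Hsf1. The second quantification gave 756 for Hspa8, 259 for Hspa5, 28.0 for Dnajb1, 141 for Dnaja1, 54.3 for Hsph1, 170.4 for Hsp90aa1, 567 for Hsp90ab1 and 69.1 for Hsf1; Hspa1a and Hspa1b moved by less than 1 SD. Of 31 transcript shares, 23 moved by more than 1 SD. All 42 alternative log2 ratios kept their direction, but some moved in size by more than 1 SD. The ratio of Hspa1b to Hspa1a was 1.86 ± 0.17, against 0.951 with the pseudocount and 2.23 in the second quantification. In the second quantification Hspa8 to Hspa5 was 1.54 against 1.13 ± 0.16, and Hsp90ab1 to Hsp90aa1 1.73 against 1.56 ± 0.09. Dnaja1 to Dnajb1 stayed at 2.34 there. Where values moved, the cause was not tested. At 8.17 counts in library 1, Hspa1a is limited by depth.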

Other observations

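Some chaperone genes were at or near the floor of detection in these T cell libraries. Hspa1l, the third gene of the Hspa1 cluster, received 0 counts in each library, which allows up to 0.206 CPM in the shallowest one. Most of the 10 genes listed here as small heat shock proteins were low. In the first quantification Hspb1 received 1 count in all, Hspb2, Hspb3 and Hspb7 received 0, and Cryab averaged 0.0925 TPM. The second quantification gave Hspb7 0.099 to 0.131 TPM. In the first, Hspb11 averaged 11.9 ± 1.93 TPM (SD, n = 4) and Hspb6 1.06 ± 0.204. The latter pair were the only 2 of 10 in that list with enough counts for edgeR's goodness-of-fit test, and 0 of them had an unadjusted p below 0.05. Chosen after its values were seen, Hspa2, another HSP70 gene, had 14, 39, 33 and 37 counts in libraries 1 to 4, lowest in library 1 with a log2 difference of -1.21 and an adjusted p of 1.00 (edgeR).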
